A study of Mus musculus with 4 samples.

Results

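The enzymes that place, copy and remove DNA methylation were followed in bone marrow cells of mice without lysosomal acid lipase (LAL), the enzyme that breaks down cholesteryl esters and triglycerides in lysosomes. They were taken by name as *Dnmt1*, *Dnmt3a*, *Dnmt3b*, *Uhrf1*, *Uhrf2*, *Tet1*, *Tet2*, *Tet3* and *Tdg*, each read from the array probe set that names this gene alone and, where there are several, from the one with the highest mean level. 8 of the 9 were measured in this way, of 19938 genes in all. *Tdg* had 0 probe sets of its own and was read only through 4 probe sets that also list a *Tdg* pseudogene.

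RNA came from bone marrow cells that the labels give as CD11b+ Gr-1+ myeloid-derived suppressor cells (MDSCs), immature myeloid cells that restrain T cells. The methods describe them as cells selected with magnetic beads for Ly6G, a surface protein of granulocytes. The *lal-/-* group held 2 arrays of mice that carry the disrupted LAL gene on both alleles, and the *lal+/+* group held 2 arrays of wild-type mice. All mice were 5 months old, with 10 generations of back-crossing to FVB/N, and the labels give no treatment. The methods give n = 5 for the mice used for RNA and do not say how these relate to the 2 arrays of a genotype. Whether the 2 arrays of a genotype came from separate mice or from pooled cells is not stated in the sources used here. A p-value here therefore covers the spread between arrays alone, and that spread may be technical.

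Values are log2 expression levels of Affymetrix Mouse Gene 1.0 ST arrays, quantile normalized across the 4 arrays, and the number of arrays limits their precision. *Lipa*, which encodes LAL, read 9.50 and 9.05 in *lal+/+* cells and 7.37 and 7.49 in *lal-/-* cells (log2 fold change -1.85, SE 0.17, adjusted p = 4.17e-04 from limma). Pearson's r over all probe sets was 0.984 and 0.987 between arrays of a genotype and 0.922 to 0.932 between genotypes, and probe sets are no independent replicates. The call of a gene as higher or lower needed an adjusted p under 0.05 together with a difference of 2-fold or more. This held for 7.56% of all genes upward and for 3.24% downward. The level of silent genes was taken from 1035 probe sets of olfactory receptor genes, 95% of which lay below 6.79 in *lal+/+* and below 6.29 in *lal-/-* cells. A probe set with a mean below these values in a genotype is described as within the silent range there. A difference from such a value is one of array readings, not a measured fold of RNA. Levels of different probe sets cannot be set against each other, because probes differ in brightness.

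DNA methylation in mammals sits mainly on cytosines that are followed by guanine (CpG). DNMT3A and DNMT3B place it on unmethylated DNA. After replication the daughter strand lacks it, UHRF1 binds the sites marked on the parent strand alone, and DNMT1 restores the mark there. UHRF2 is a close relative of UHRF1. The TET enzymes oxidize methylcytosine, and TDG cuts out the more oxidized forms, which base excision repair then replaces with plain cytosine. In blood formation, loss of DNMT3A or TET2 is best known from stem cells that expand and from myeloid malignancies.

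All 9 genes matched windows in the RefSeq promoter table (GRCm38.p6), which holds 250 bases ahead of and 50 bases after each start of transcription. They had 14 windows among the 32817 of the table. 13 of the 14 held more CpG than the table's median of 7, with a range from 2 in the first window of *Dnmt1* to 57 in *Tet2*. Sequences are shown for *Uhrf1* and *Uhrf2*, the measured enzymes with the widest differences between genotypes, and for *Tdg*, read only with its pseudogene. They are the bases of the first window that lie ahead of the gene's first annotated base, in the reference genome and on the plus strand, and CpG is in capitals. They do not show whether these sites were methylated in MDSCs, which was not measured.
*Uhrf1*, chr17:56303087-56303336: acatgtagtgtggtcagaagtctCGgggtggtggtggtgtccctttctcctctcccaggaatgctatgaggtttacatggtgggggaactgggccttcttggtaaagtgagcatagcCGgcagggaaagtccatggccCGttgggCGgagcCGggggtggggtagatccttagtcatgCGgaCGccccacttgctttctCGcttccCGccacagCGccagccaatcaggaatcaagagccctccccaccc
*Uhrf2*, chr19:30030263-30030429: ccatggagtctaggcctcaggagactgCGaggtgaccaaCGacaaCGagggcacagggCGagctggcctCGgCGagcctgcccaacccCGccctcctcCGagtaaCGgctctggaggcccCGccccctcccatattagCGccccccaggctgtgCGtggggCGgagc
*Tdg*, chr10:82629588-82629813: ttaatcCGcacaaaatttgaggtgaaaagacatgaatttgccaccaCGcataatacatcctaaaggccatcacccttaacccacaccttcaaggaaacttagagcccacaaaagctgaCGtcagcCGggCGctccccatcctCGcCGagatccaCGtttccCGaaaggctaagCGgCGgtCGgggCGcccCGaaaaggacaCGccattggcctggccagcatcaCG
The stretches differ in CpG, with 10 in 250 bases for *Uhrf1*, 13 in 167 bases for *Uhrf2* and 16 in 226 bases for *Tdg*.

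3 motifs were searched on both strands of the whole windows. The E2F motif, bound by factors that drive S phase genes, was spelled TTTCCCGC, TTTCGCGC, TTTGCCGC or TTTGGCGC. It was found in 2.26% of all windows, and among the enzymes in the third window of *Dnmt1* (2 matches) and the second window of *Uhrf1* (1 match). CCAAT was found in 37.4% of all windows and in 6 of the 14 here, which belong to *Dnmt1*, *Tdg*, *Tet3* and *Uhrf1*. The cyclic AMP response element TGACGTCA was found in 1.79% of all windows and here only in that of *Tdg*, where it stands in the sequence above as tgaCGtca. A match describes the letters and not a bound factor.

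None of the 8 measured enzymes was called in either direction by limma. At an unadjusted p under 0.05, 3 of the 8 passed in limma, as 40.6% of all genes did, and 3 in an ordinary linear model of genotype, as 28.5% of all genes did. Their median log2 fold change was -0.21, against 0.08 over all genes, and the median absolute change was 0.30 against 0.27. The sign of that median depended on the processing. It was 0.02 with the arrays shifted to a common median, and -0.06 with the mean of each gene's probe sets. After quantile normalization 3 of the 8 had positive and 5 had negative differences. In all 8 the 2 arrays of one genotype lay on one side of the 2 arrays of the other, which 65.7% of all genes did. An exact permutation test of 2 arrays against 2 cannot give a p below 0.333 for a single gene, so the tests here rest on the variances that limma shares across genes.

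**Figure D1:**
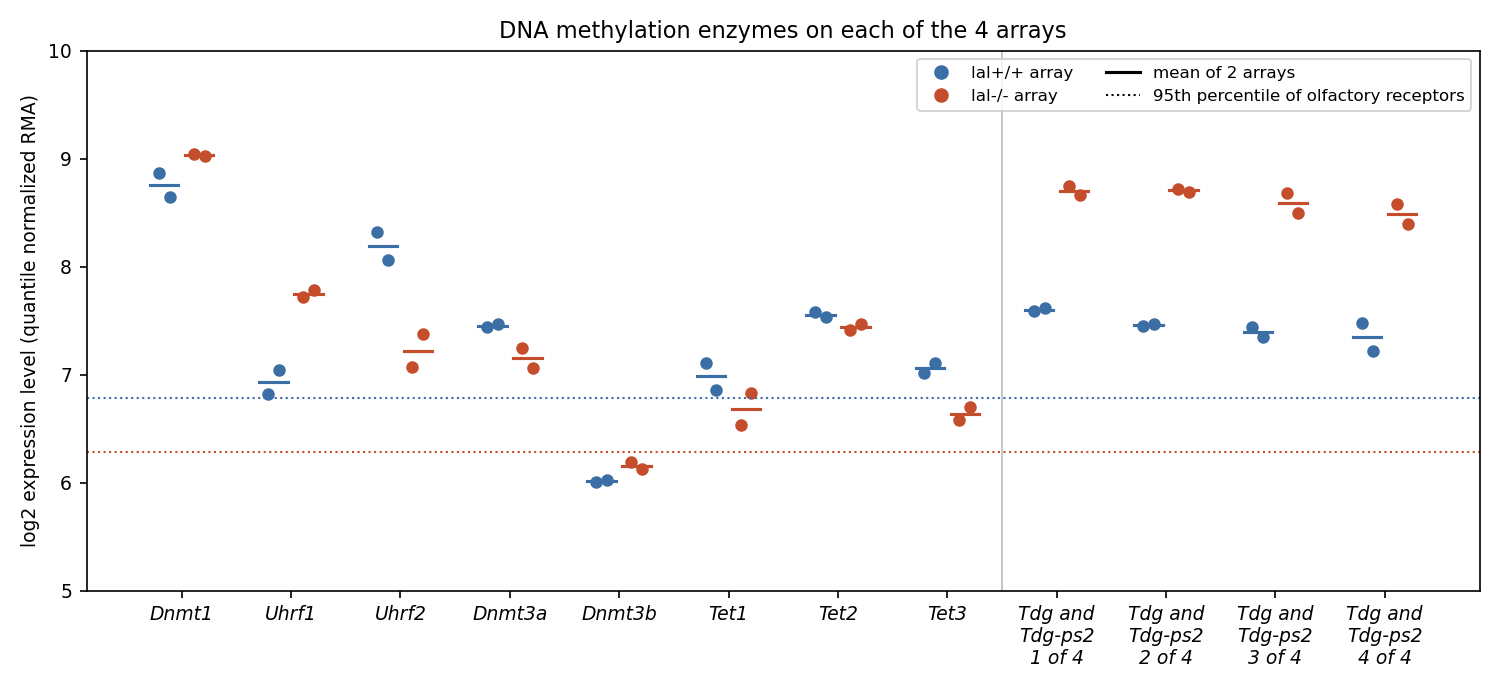
The log2 level (quantile normalized) of each enzyme on each of the 4 arrays, with *lal+/+* in blue, *lal-/-* in red, a bar at the mean of 2 arrays and dotted lines at the 95th percentile of olfactory receptor probe sets (6.79 and 6.29). *Uhrf1* and the 4 probe sets shared by *Tdg* and its pseudogene lie higher in *lal-/-* cells, *Uhrf2* lies lower, and *Dnmt3b* lies under the dotted lines in both genotypes.

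Among the maintenance factors, *Uhrf1* and *Uhrf2* differed in opposite directions. *Uhrf1* read 6.82 and 7.05 in *lal+/+* cells and 7.72 and 7.78 in *lal-/-* cells. The *lal+/+* mean was 6.93 ± 0.16 (SD, n = 2 arrays) and the *lal-/-* mean 7.75 ± 0.04 (SD, n = 2 arrays), a 1.76-fold higher level (log2 fold change 0.81, SE 0.13, adjusted p = 0.00423 from limma). The difference passed the test on p but stayed under 2-fold, so the gene was not called. 19.8% of all genes were higher at such a p whatever their fold. With the arrays shifted to a common median, and not quantile normalized, the difference was 1.06 and passed both thresholds.

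*Uhrf2* read 8.32 and 8.06 in *lal+/+* cells and 7.07 and 7.38 in *lal-/-* cells. The means were 8.19 ± 0.19 (SD, n = 2 arrays) and 7.22 ± 0.22 (SD, n = 2 arrays), a 1.95-fold lower level in *lal-/-* cells (log2 fold change -0.97, SE 0.16, adjusted p = 0.00444 from limma). Both *lal-/-* arrays lay below both *lal+/+* arrays, by 0.68 at the nearest. The gene missed the 2-fold threshold by little, and without the second *lal+/+* array or the second *lal-/-* array it passed, at -1.16 and -1.06. With a common median the difference was -0.64. At an adjusted p under 0.05 whatever the fold, 9.85% of all genes were lower.

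*Dnmt1*, the methyltransferase that acts at replicated DNA, read 8.87 and 8.65 in *lal+/+* cells and 9.04 and 9.03 in *lal-/-* cells. The log2 fold change was 0.28 (SE 0.13, adjusted p = 0.163 from limma). Its size depended on the scaling of the arrays. It was 0.68 in the values as deposited (adjusted p = 0.00924) and 0.86 with a common median (adjusted p = 0.00245), under 2-fold in each case. The sign was positive under every alternative run, and leaving out 1 array gave 0.18 to 0.39.

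Neither de novo methyltransferase passed the test. *Dnmt3a* read 7.44 and 7.47 in *lal+/+* cells and 7.25 and 7.06 in *lal-/-* cells (log2 fold change -0.30, SE 0.13, adjusted p = 0.130 from limma), and with a common median the difference was -0.08. *Dnmt3b* read 6.01 and 6.03 in *lal+/+* cells and 6.19 and 6.13 in *lal-/-* cells (log2 fold change 0.14, SE 0.12, adjusted p = 0.426 from limma). All 4 of its values lay within the silent range, so no expression of *Dnmt3b* could be told from that of silent genes, and its difference turned to -0.05 in the deposited values.

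The 3 TET genes, whose products oxidize methylcytosine, had negative differences on the probe sets that stand for them. *Tet3* read 7.01 and 7.11 in *lal+/+* cells and 6.58 and 6.70 in *lal-/-* cells, a 1.34-fold lower level (log2 fold change -0.42, SE 0.13, adjusted p = 0.0442 from limma). With *Uhrf1* and *Uhrf2* this made 3 of the 8 enzymes with an adjusted p under 0.05, against 29.6% of all genes. A second probe set of *Tet3*, with 5.67 and 5.84 against 6.30 and 6.02, gave a difference of 0.41 in the other direction (SE 0.15, adjusted p = 0.0817 from limma). By its means it lay within the silent range in both genotypes, though its first *lal-/-* array read just over the limit of 6.29. The mean of both probe sets differed by -0.01 (adjusted p = 0.977), so the direction for *Tet3* rests on the choice of the brighter one. Its adjusted p also moved to 0.133 with a common median and to 0.0883, 0.287 and 0.146 when the second *lal+/+*, the first *lal-/-* or the second *lal-/-* array was left out.

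*Tet2* read 7.58 and 7.53 in *lal+/+* cells and 7.41 and 7.47 in *lal-/-* cells (log2 fold change -0.12, SE 0.12, adjusted p = 0.513 from limma), and 0.17 with a common median. The brightest of 3 probe sets of *Tet1* read 7.11 and 6.86 in *lal+/+* cells and 6.53 and 6.83 in *lal-/-* cells (log2 fold change -0.30, SE 0.16, adjusted p = 0.201 from limma). The gap between the nearest arrays of the 2 genotypes was 0.03, less than the gap within either genotype. The second gave -0.13 (SE 0.13, adjusted p = 0.507 from limma). The last read 6.01 and 5.95 against 5.35 and 5.36 (log2 fold change -0.63, SE 0.12, adjusted p = 0.00775 from limma). These last 2 lay within the silent range in both genotypes, where the olfactory receptor probe sets also read lower on the *lal-/-* arrays (medians of 4.92 and 4.97 against 4.72 and 4.73). Whether the readings of these *Tet1* probe sets are related to that difference was not tested.

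**Figure D2:**
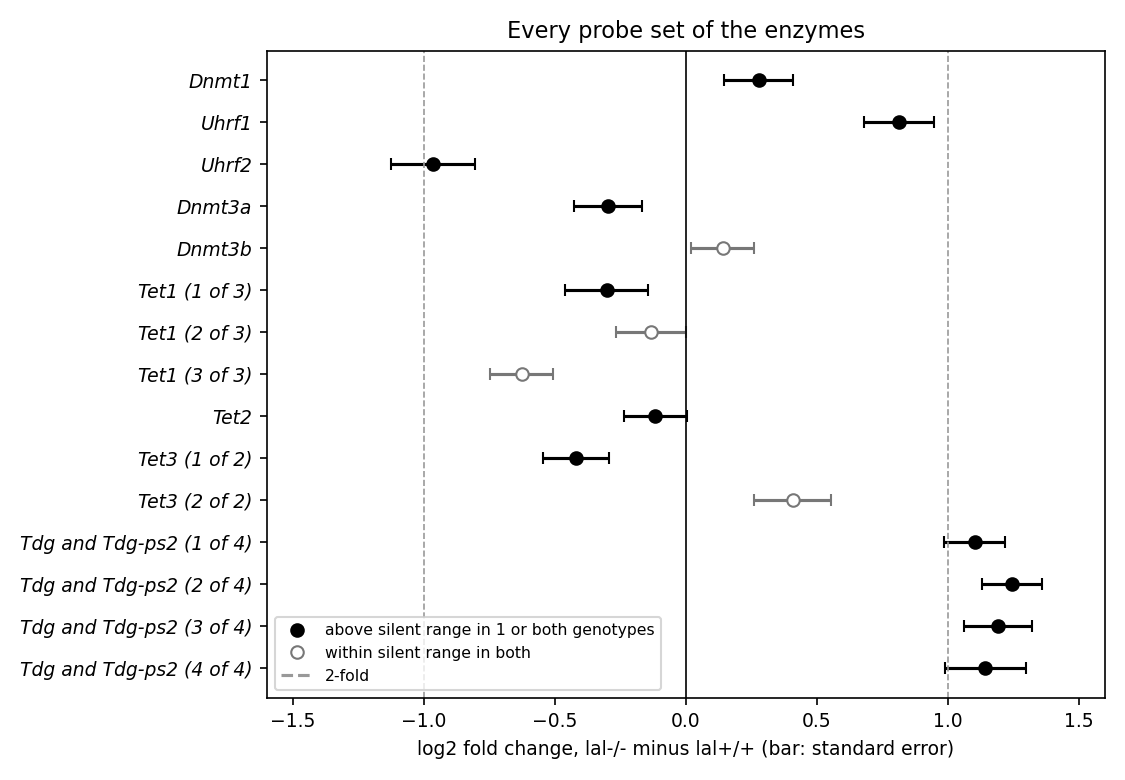
The log2 fold change of every probe set of the enzymes (*lal-/-* minus *lal+/+*, bars are standard errors of the limma fit, dashed lines mark 2-fold), with open points for probe sets within the silent range in both genotypes and several probe sets of a gene ordered from the brightest in *lal+/+* cells. The *Tet3* probe sets point in opposite directions, and the 4 *Tdg* and *Tdg-ps2* points are past the 2-fold line.

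*Tdg*, the glycosylase that cuts out oxidized methylcytosine, was read only together with its pseudogene *Tdg-ps2*. The brightest of these 4 probe sets in *lal+/+* cells read 7.59 and 7.61 there and 8.75 and 8.66 in *lal-/-* cells (log2 fold change 1.10, SE 0.12). The others gave 1.25 (7.45 and 7.47 against 8.72 and 8.69), 1.19 (7.44 and 7.35 against 8.68 and 8.50) and 1.14 (7.48 and 7.22 against 8.58 and 8.40). All 4 were called higher, 2.15-fold to 2.37-fold, with adjusted p from 0.00392 to 0.00970 in a limma fit over all 35557 probe sets, in which 6.22% of probe sets were called higher. With the first *lal-/-* array left out 3 of the 4 passed. Probe sets that list the same pair of genes share sequence and are not independent of each other, and transcripts of *Tdg* and of the pseudogene cannot be told apart with them.

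The proteins that act with these enzymes were taken as 6 lists, each counted against the 7.56% and 3.24% of all genes called. Of the partners and recruiters of the methyltransferases, 2 of 13 measured were called higher and 0 lower, with a median of 0.04. *Cdca7*, which with the remodeller HELLS opens chromatin for maintenance methylation, read 6.25 and 6.11 in *lal+/+* cells and 7.90 and 7.81 in *lal-/-* cells. It rose (log2 fold change 1.68, SE 0.13, adjusted p = 2.00e-04 from limma), from within the silent range to above it. *Hells* differed by 0.59 (adjusted p = 0.0388) without reaching 2-fold. *Dnmt3l*, a cofactor of the de novo enzymes in germ cells, was called at 1.02 (SE 0.13, adjusted p = 0.00132 from limma), but read 4.65 and 4.81 against 5.72 and 5.78, within the silent range in both genotypes, and it was under 2-fold in the deposited values (0.77) and with a common median (0.95). *Pcna*, the replication clamp that tethers DNMT1, differed by -0.23 (adjusted p = 0.204), and *Usp7*, a deubiquitinase of DNMT1 and UHRF1, by -0.60 (adjusted p = 0.0112).

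A further list held proteins that read methylated CpG and other members of their families, not all of them readers. Of these, 0 of 7 measured were called. 6 of the 7 had positive differences, and the other was *Zbtb4* at -0.66 (adjusted p = 0.0121 from limma). The median was 0.39, against 0.08 over all genes. *Mbd1*, *Mbd3* and *Mbd6*, which are among the 6, read within the silent range in *lal+/+* cells and above it in *lal-/-* cells. The limit of that range is itself lower in *lal-/-* cells (6.29 against 6.79). The *lal-/-* mean of *Mbd3* (6.44) lay under the *lal+/+* limit, and those of *Mbd1* and *Mbd6* (6.94 and 6.88) lay little above it. *Mbd3* differed by 0.37 (adjusted p = 0.0859 from limma). *Mbd2*, which recruits a deacetylase complex to methylated DNA, read 11.81 and 11.81 in *lal+/+* cells and 12.25 and 12.16 in *lal-/-* cells (log2 fold change 0.39, SE 0.12, adjusted p = 0.0485 from limma).

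Base excision repair completes the removal that TDG begins. Of 12 measured base excision repair genes, 2 were called higher and 1 lower, with a median of -0.01. *Parp1*, which binds the nicked strand, read 8.46 on both *lal+/+* arrays and 6.77 and 6.80 in *lal-/-* cells, a 3.20-fold fall (log2 fold change -1.68, SE 0.12, adjusted p = 1.66e-04 from limma). *Lig3*, a ligase that seals the repaired strand, rose from 6.21 and 6.15 to 7.23 and 7.17 (log2 fold change 1.02, SE 0.12, adjusted p = 0.00104 from limma). *Neil3*, a glycosylase known from dividing cells, rose from 7.00 and 6.36 to 7.97 and 8.03 (log2 fold change 1.32, SE 0.21, adjusted p = 0.00355 from limma). By their means both read within the silent range in *lal+/+* cells and above it in *lal-/-* cells. The first *lal+/+* array of *Neil3*, at 7.00, lay over the *lal+/+* limit of 6.79. *Lig3* was under 2-fold in the deposited values (0.93) and without the first *lal-/-* array (0.97).

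Of 14 measured TET cofactors and partners, 1 was called higher and 1 lower, with a median of 0.07. *Idh1*, the cytosolic enzyme that makes the 2-oxoglutarate TET enzymes consume, read 8.74 and 8.40 in *lal+/+* cells and 10.32 and 10.27 in *lal-/-* cells (log2 fold change 1.72, SE 0.15, adjusted p = 3.20e-04 from limma). *Idh2*, its mitochondrial counterpart, differed by -0.20 (adjusted p = 0.261). *Ogt*, a glycosyltransferase that binds TET proteins, read 11.13 and 10.96 in *lal+/+* cells and 10.10 and 9.96 in *lal-/-* cells (log2 fold change -1.02, SE 0.13, adjusted p = 0.00156 from limma). The call on *Ogt* was lost in the deposited values (-0.58), with a common median (-0.40), without the first *lal+/+* array (-0.92) and without the second *lal-/-* array (-0.97).

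Of 6 measured deaminases and GADD45 genes, which have been linked to active demethylation, 2 were called higher and 0 lower, with a median of 0.39. *Gadd45g* rose from 5.65 and 5.43 to 7.38 and 7.30 (log2 fold change 1.80, SE 0.13, adjusted p = 1.94e-04 from limma), from within the silent range to above it. *Gadd45b* rose from 7.08 and 6.94 to 8.29 and 8.10 (log2 fold change 1.18, SE 0.13, adjusted p = 8.94e-04 from limma), and *Gadd45a* differed by 0.74 (adjusted p = 0.00481). These 3 stress-response genes also act in cell-cycle arrest and repair. Of 12 measured genes that make and recycle S-adenosylmethionine, the methyl donor, 0 were called, with a median of -0.04. *Mat2b*, a subunit of methionine adenosyltransferase, differed by 0.93 (adjusted p = 0.00199) and *Ahcyl2* by -0.87 (adjusted p = 0.00492), and neither reached 2-fold.

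Germline genes that are kept silent by DNA methylation in other tissues, and imprinted genes, were listed as a readout at the level of RNA. Methylation itself was not measured, so a difference in these genes is one of RNA alone. Of 17 measured germline genes, among them *Dazl*, *Sycp3* and *Ddx4*, 0 were called, and 16 of the 17 lay within the silent range in both genotypes. Their log2 fold changes ran from -0.40 to 0.50, with a median of -0.03. Of 17 measured imprinted genes 1 was called, *Igf2r*, the receptor that carries enzymes to the lysosome, which read 7.11 and 6.75 in *lal+/+* cells and 8.03 and 8.20 in *lal-/-* cells (log2 fold change 1.18, SE 0.16, adjusted p = 0.00181 from limma). 12 of the 17 lay within the silent range in both genotypes, and the median was 0.08, as over all genes. The share of all genes within that range was not counted. The counts of 16 germline and 12 imprinted genes therefore have no background to be set against.

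**Figure D3:**
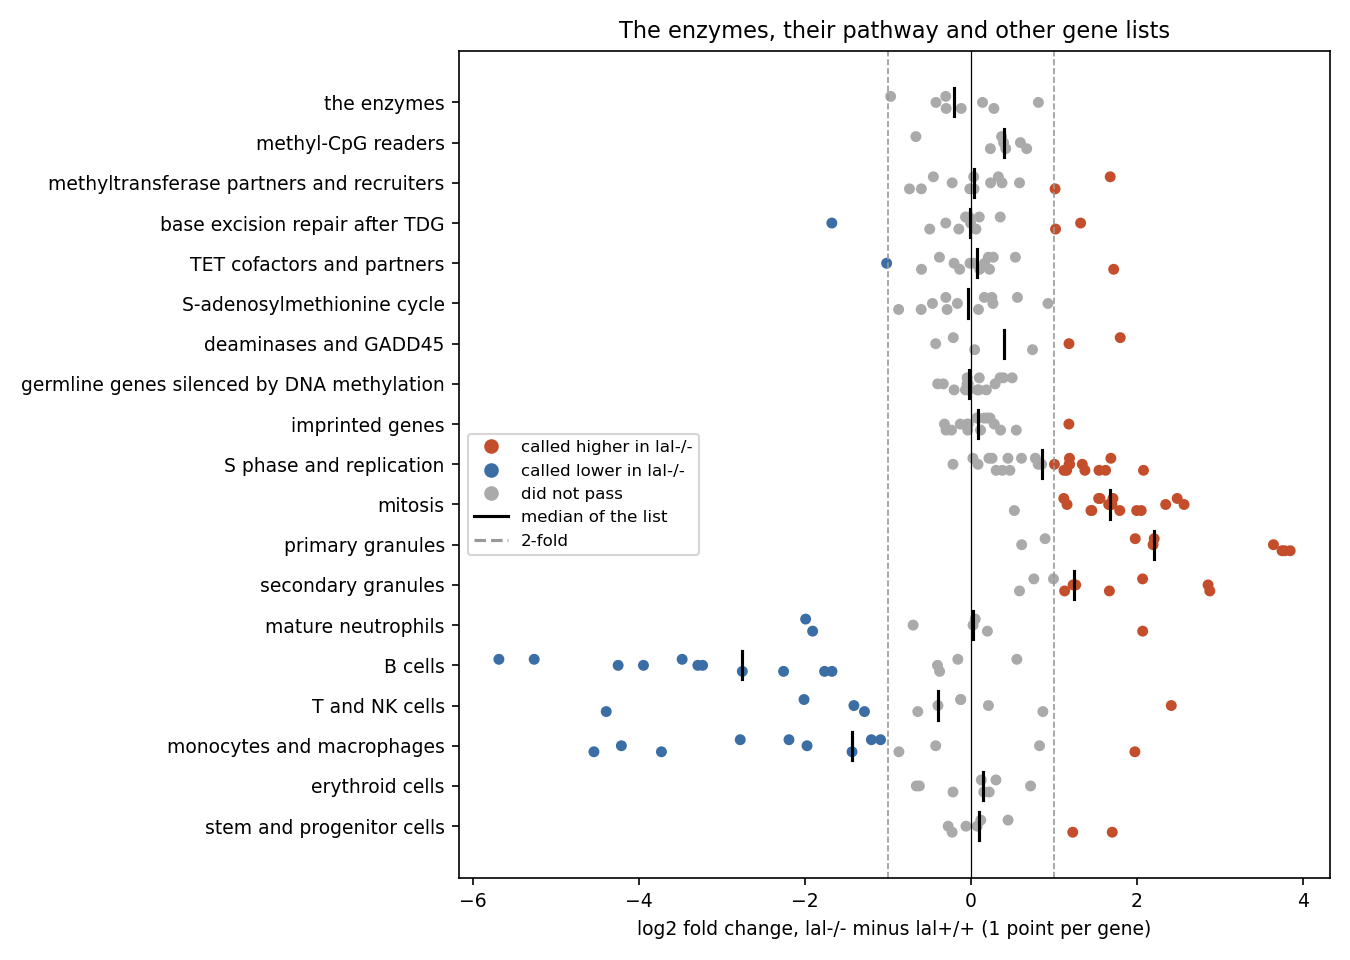
The log2 fold change (*lal-/-* minus *lal+/+*) of the 8 measured enzymes and of each measured gene of the lists, 1 point a gene, with genes called higher in red, genes called lower in blue, genes that did not pass in grey, black bars at the medians and dashed lines at 2-fold. The enzymes and the germline genes hold 0 called genes, while 15 of 16 mitosis genes lie past 2-fold upward and 11 of 15 B cell genes past 2-fold downward.

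The differences of the enzymes stood beside wider ones in genes of division and of other cell types, given here as measured. *Uhrf1* and *Dnmt1* are transcribed mainly in dividing cells. Of 25 measured S phase and replication genes 12 were called higher and 0 lower, with a median of 0.85 and a summed log2 level of 165.84 to 171.32 in *lal+/+* and 189.61 to 190.61 in *lal-/-* cells. *Ccna2*, the S phase cyclin, rose by 2.08 on the log2 scale (SE 0.13, adjusted p = 1.11e-04 from limma) and *Rrm2*, a subunit of ribonucleotide reductase, by 1.69 (SE 0.25, adjusted p = 0.00270 from limma). Of 16 measured mitosis genes 15 were called higher and 0 lower, with a median of 1.68 and a summed level of 112.44 to 114.84 against 140.64 to 140.93. *Bub1* and *Cdk1*, kinases of mitosis, rose by 2.57 and 2.49, *Bub1* from within the silent range in *lal+/+* cells. Other called genes of both lists also read within that range there, so the medians and summed levels rest in part on such readings. The part of dividing cells in the levels of the enzymes was not tested.

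B cell and macrophage markers were the lists with the most genes called lower. Of 15 measured B cell genes 11 were called lower in *lal-/-* cells and 0 higher, with a median of -2.76 and a summed level of 126.01 to 128.03 in *lal+/+* and 88.77 to 89.29 in *lal-/-* cells. *Cr2* and *Ms4a1*, surface proteins of B cells, fell by 5.69 and 5.26 on the log2 scale, into the silent range in *lal-/-* cells. Of 13 measured monocyte and macrophage genes 9 were called lower, with a median of -1.43 and a summed level of 110.27 to 111.59 against 88.95 to 89.62, led by *Mrc1* and *Spic* at -4.54 and -4.21, and 1 was called higher, *F13a1* at 1.98. *Mrc1* and *Spic* read within the silent range in *lal-/-* cells, and *F13a1* in *lal+/+* cells. Of 11 measured T and NK cell genes 4 were called lower, led by *Cd2* at -4.40 and *Cd3g* at -2.01, and 1 was called higher, *Cd3d* at 2.42. The summed level of that list was 81.49 to 81.84 against 74.71 to 74.85. In bulk RNA fewer cells of a type and less RNA per cell cannot be told apart. The part of these cells in the lower readings of *Uhrf2* and of the brighter *Tet3* probe set was not tested.

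Genes listed for primary and secondary granules were called only upward, while genes of mature neutrophils were called in both directions. Of 9 measured genes of primary granules, which form at the promyelocyte stage, 7 were called higher, among them *Serpinb10* and *Ctsg* at 3.85 and 3.78, both within the silent range in *lal+/+* cells, and the summed level was 54.57 to 55.00 in *lal+/+* and 77.51 to 77.93 in *lal-/-* cells. Of 10 genes in the secondary granule list 7 were called higher, led by *Ly6g* and *Cd177* at 2.88 and 2.86. The summed level of that list was 106.29 to 107.31 against 122.15 to 122.34. *Ly6g*, the gene of the selection marker, was counted in that list although it encodes a surface protein. It read 10.19 and 9.80 in *lal+/+* cells and 12.91 and 12.84 in *lal-/-* cells, above the silent range on all 4 arrays. Of 7 mature neutrophil genes 1 was called higher, *Mmp9* at 2.07, and 2 lower, *Il1b* at -1.99 and *Csf3r* at -1.91, with a median of 0.03 and a summed level of 85.41 to 85.60 against 83.16 to 83.36. Of 8 stem and progenitor genes 0 were called lower and 2 higher, *Myb* at 1.70 and *Kit* at 1.23, both from within the silent range in *lal+/+* cells, and of 8 erythroid genes 0 were called. Whether the enzymes differ between genotypes in granulocytes of one stage was not measured with these arrays.

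**Figure D4:**
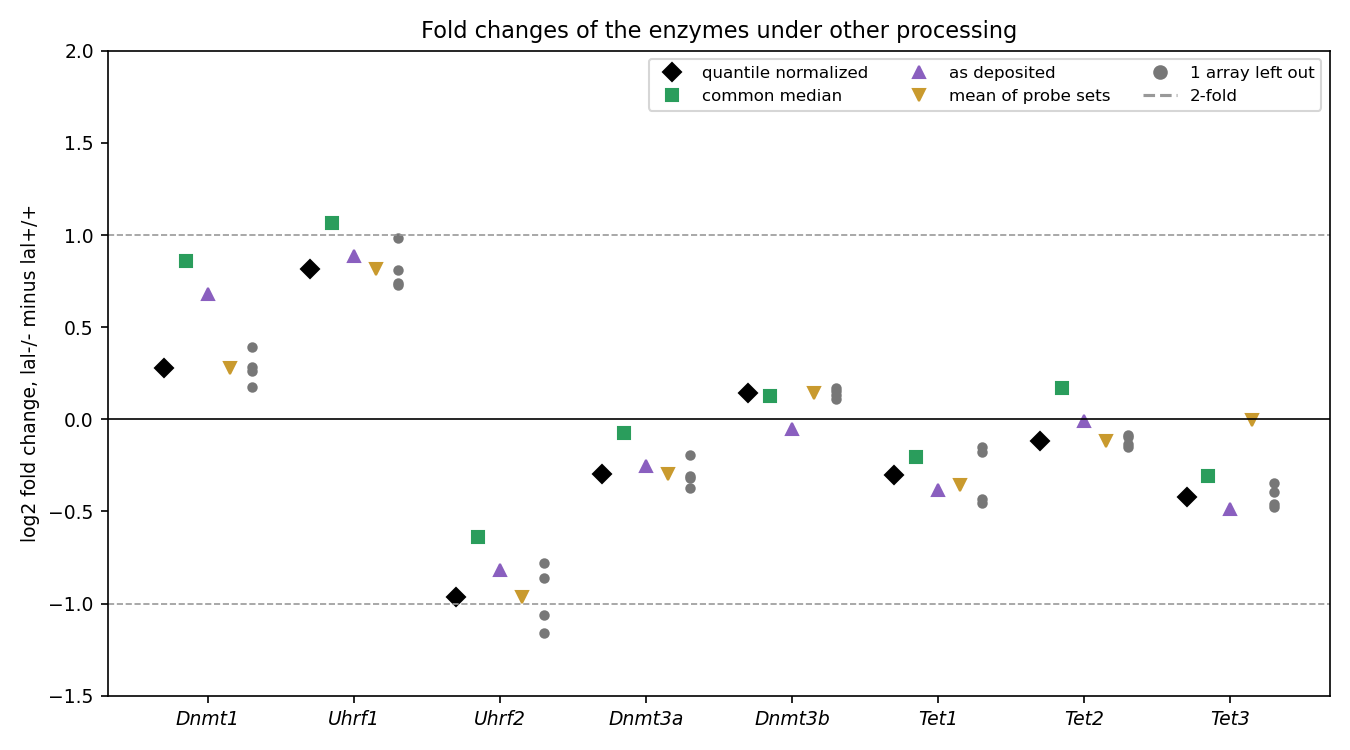
The log2 fold change of each measured enzyme (*lal-/-* minus *lal+/+*) after quantile normalization (black diamonds), with a common median (green squares), in the deposited values (purple triangles), as the mean of a gene's probe sets (yellow triangles) and with 1 array left out (grey points), and dashed lines at 2-fold. *Uhrf1* stays above 0 and *Uhrf2* below 0 throughout, while *Dnmt1* runs from 0.18 to 0.86 and *Dnmt3b* and *Tet2* lie on both sides of 0.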

How the data were processed

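Total RNA of bone marrow MDSCs was labelled with biotin after NuGEN amplification per the labels and hybridized to 4 arrays. From the scans the authors computed RMA values in Partek Genomics Suite, and the deposited values are on the log2 scale. The submitters' processing notes name GCOS 1.1. Neither the genome build nor the probe positions are given in the sources used here. GEO's platform annotation names 1 gene for 21789 of 35557 probe sets, several for 1621, and does not list 12147. Of the probe sets naming 1 gene, 21698 were matched to a current RefSeq symbol, whether or not it had changed, and 91 kept their symbol as written. Deposited medians ran from 6.15 to 6.36 and differed by 0.208, over the 0.1 allowed, so the arrays were quantile normalized. Genotype, the only term because the files hold 1 tissue, was fitted with limma 3.58.1 in R 4.3.3 (4.83 prior and 2 residual degrees of freedom). Benjamini-Hochberg adjustment ran over the single-gene probe sets, and those of the shared *Tdg* probe sets over all probe sets. The procedure was tested on simulated data.

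The members and gene lists were chosen with earlier results of these data known. Named genes were all members, up to 6 called genes in each direction of each pathway or readout list, up to 2 of each cell type or cell cycle list, and *Lipa*. *Hells*, *Pcna*, *Usp7*, *Zbtb4*, *Mbd1*, *Mbd2*, *Mbd3*, *Mbd6*, *Idh2*, *Gadd45a*, *Mat2b*, *Ahcyl2*, *Dazl*, *Sycp3* and *Ddx4* were added after their values were seen. The alternatives were a common median, the deposited values, a filter that keeps probe sets of at least median level, adjustment over all probe sets, trended and robust variances, an ordinary linear model, a replicate block, no fold threshold, the mean of a gene's probe sets, and each array left out in turn. A crossed replicate block and all alternatives for the shared *Tdg* probe sets were added after the data were seen. Promoters were read from the RefSeq table of GRCm38.p6.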

Additional observations from a re-analysis of the deposited data

How the results depend on the processing

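No measured enzyme was called upward or downward after quantile normalization. 1 was called higher with a common median (*Uhrf1*, 1.06). Without a fold threshold 1 was called higher (*Uhrf1*) and 2 lower (*Uhrf2* and *Tet3*). When each array was left out in turn the number called lower ran from 0 to 1, with 1 (*Uhrf2*) without the second *lal+/+* and without the second *lal-/-* array. *Dnmt3b* turned to -0.054 in the deposited values and *Tet2* to 0.17 with a common median, and the cause was not tested. Over all alternatives *Uhrf1* ran from 0.73 to 1.06, *Uhrf2* from -1.16 to -0.64, *Dnmt1* from 0.18 to 0.86, *Dnmt3a* from -0.37 to -0.08, *Tet1* from -0.45 to -0.15 and *Tet3* from -0.49 to -0.01. *Dnmt3b* lay below the median level and has no value under that filter.

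The 4 *Tdg* and *Tdg-ps2* probe sets were called under each alternative but 2. The ordinary linear model called 0 (adjusted p from 0.0542 to 0.115, with 4 of 4 at an unadjusted p under 0.05), and 3 were called without the first *lal-/-* array. When each array was left out in turn the number called ran from 3 to 4. That model called 0 of all genes, with 5691 genes and 3 enzymes at an unadjusted p under 0.05, since it has 2 residual degrees of freedom for each gene.

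Scaling moved the calls over all genes. 1508 were higher and 646 lower after quantile normalization (70.0% higher), 2619 and 467 with a common median (84.9%), and 2013 and 633 in the deposited values (76.1%). The median of all genes was 0.08, 0.12 and -0.05 in turn, and that of the measured enzymes -0.21, 0.02 and -0.15. Deviations of arrays that share a replicate number correlated at -0.16, so the numbers were not taken as pairs. With the replicate block *Uhrf1* kept 0.81 (adjusted p = 0.00394) and *Tet3* had an adjusted p of 0.0756, and no call of an enzyme changed. The crossed block also gave 1508 and 646 calls.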
